A study of Mus musculus with 2 samples.

Results

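The genes described here encode 10 RNA-binding proteins of neuronal splicing and mRNA stability, not all of them confined to neurons: Rbfox1, Rbfox2, Rbfox3, Elavl2, Elavl3, Elavl4, Nova1, Nova2, Ptbp1 and Ptbp2. They were chosen by name, and every probe set that the array annotation assigned to only 1 of these symbols was taken. This gave 31 probe sets for 10 of 10 genes, of 18193 genes with such a probe set on the array. The cells were Neuro2a, a mouse neuroblastoma line, harvested 24 h after transfection of an siRNA against the translational regulator CPEB1 (siCPEB1) or of a control siRNA (siControl). RNA of each group was measured on 1 Affymetrix Mouse Genome 430 2.0 array, starting from 100 ng of total RNA. Each group was therefore 1 array of a transient knockdown in 1 established tumour line, with no replicate, so the signals are described with no test and no p-value, and differences between cultures, labelling reactions or arrays cannot be told apart from the effect of the siRNA.

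The Rbfox, Nova and Ptbp proteins bind short motifs in pre-mRNA and set whether nearby exons are included. Rbfox proteins bind the element UGCAUG, Nova proteins bind YCAY clusters, and PTB proteins bind pyrimidine-rich tracts and mostly repress exons that neurons include. Ptbp1 is the form of dividing and non-neuronal cells, Ptbp2 takes over in new neurons and declines as they mature, and the neuronal Elavl (Hu) proteins bind AU-rich and U-rich elements in 3′ untranslated regions and stabilise or help translate the mRNAs that carry them. Rbfox3 is the antigen NeuN, a widely used stain for mature neurons.

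Promoter windows are shown for Rbfox3, Rbfox1 and Ptbp2. Rbfox3 and Rbfox1 had the highest ratios among probe sets that passed the signal filter. With the array medians set equal, Ptbp2 alone of the 10 genes was past 1.5-fold lower at every one of its passing probe sets. That did not hold under most of the other settings given below. Each window runs from 250 bases before to 50 bases after a RefSeq transcript start (GRCm38.p6). It is written 5′ to 3′ on the strand of the gene, and has every CG dinucleotide in capitals. RefSeq windows were found for 9 of the 10 genes.
Rbfox3 at chr11:118760992-118761291 (minus strand): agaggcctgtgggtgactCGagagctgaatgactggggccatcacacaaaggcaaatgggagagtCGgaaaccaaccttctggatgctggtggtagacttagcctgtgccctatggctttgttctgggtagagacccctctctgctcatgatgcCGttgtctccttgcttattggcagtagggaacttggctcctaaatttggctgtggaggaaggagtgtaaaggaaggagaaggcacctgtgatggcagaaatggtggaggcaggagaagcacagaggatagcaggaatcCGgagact
Rbfox1 at chr16:5884543-5884842 (plus strand): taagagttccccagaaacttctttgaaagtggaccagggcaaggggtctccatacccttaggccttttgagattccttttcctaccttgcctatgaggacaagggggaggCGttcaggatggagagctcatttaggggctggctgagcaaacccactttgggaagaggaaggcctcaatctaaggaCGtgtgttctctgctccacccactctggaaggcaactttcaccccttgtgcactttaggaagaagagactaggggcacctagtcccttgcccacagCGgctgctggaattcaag
Rbfox1 at chr16:7069585-7069884 (plus strand): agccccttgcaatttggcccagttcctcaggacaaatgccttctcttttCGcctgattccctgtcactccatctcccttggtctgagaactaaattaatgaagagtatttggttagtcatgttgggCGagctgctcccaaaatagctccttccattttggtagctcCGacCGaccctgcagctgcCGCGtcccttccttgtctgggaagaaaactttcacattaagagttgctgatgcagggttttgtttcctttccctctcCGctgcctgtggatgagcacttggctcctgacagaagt
Ptbp2 at chr3:119783339-119783638 (minus strand): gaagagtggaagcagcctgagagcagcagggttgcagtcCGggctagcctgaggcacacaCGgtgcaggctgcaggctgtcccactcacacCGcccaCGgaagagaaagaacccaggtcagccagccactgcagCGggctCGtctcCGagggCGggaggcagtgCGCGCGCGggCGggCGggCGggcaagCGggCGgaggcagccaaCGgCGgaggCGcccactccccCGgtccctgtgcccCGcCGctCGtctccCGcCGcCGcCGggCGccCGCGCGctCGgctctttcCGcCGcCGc
The Rbfox3 window held 4 CG dinucleotides at 53.0% GC, and 38.0% of all 32851 promoter windows of this length held at most as many. The Rbfox1 windows held 3 and 7 CG dinucleotides at 52.7% and 50% GC, where 31.4% and 51.4% of all windows held at most as many. The Ptbp2 window was far richer, with 36 CG dinucleotides at 74.7% GC, and 94.4% of all windows held at most as many. The median over all windows was 7 CG dinucleotides, and 94.6% of them held at least 1. The letters CANNTG, which read the same on both strands, occurred 2 times in the Rbfox3 window, 3 times in the second Rbfox1 window and in neither of the others, against 72.3% of all windows with at least 1. The Rbfox3 window lay inside the annotated gene and not at its outer end, as did the second Rbfox1 window and the Ptbp2 window. The array signals do not say which start a transcript used. Windows of the other genes, not shown, held 29 CG dinucleotides for Elavl3, 22 for Ptbp1, 14 for Nova1 and 17 for Nova2. Those of Elavl2 held between 10 and 27, and those of Elavl4 between 4 and 23. The relation of these numbers to the array ratios was not tested.

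Signals of both arrays were close in scale before any step of this work, with medians of 21.64 in the siCPEB1 array and 21.05 in the siControl array, and ratios were set so that these medians agree, which lowered every log2 ratio by 0.04. To pass the signal filter, a probe set had to reach the array median on 1 array or both, and on neither could it fall below the 25th percentile (5.62 in siCPEB1, 5.07 in siControl). A probe set is called higher or lower past a 2-fold ratio of siCPEB1 over siControl, and where 1 signal lay below its array median the ratio is also given with that signal set at the median, as at least N-fold. Cpeb1, against which the siRNA was directed, read 38.5 in siCPEB1-transfected cells and 302 in siControl-transfected cells, which was 8.08-fold lower. Passing probe sets of the same gene differed in log2 ratio with an SD of 0.37 about the mean of their gene, or 0.70 where 1 signal lay below the median. This is a spread between probes within these arrays and not a replicate error. Hybridization spike-in controls (18 probe sets) averaged -0.17 on the log2 scale (SD 0.075). Of the sympathetic neuroblastoma markers, 8 of the 9 genes on the array reached the median in an array, with Th below it in both. Their brightest probe sets summed to 14171 in siCPEB1 and 10600 in siControl.

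By the median over all probe sets of a family, Rbfox stood highest in siCPEB1-transfected cells, Ptbp lowest, and Elavl and Nova lay between. The median log2 ratio was 0.48 over 11 Rbfox probe sets, 0.16 over 11 Elavl probe sets, -0.18 over 4 Nova probe sets and -0.59 over 5 Ptbp probe sets. This order includes dim probe sets, since 9 of the Rbfox, 10 of the Elavl, 2 of the Nova and 5 of the Ptbp ones passed the filter. It was not taken over the passing ones alone. Single genes did not all follow this order. Ptbp1 had a median of -0.10 and Elavl3 of -0.09, while Nova2 had -1.08 over 2 probe sets, of which 1 passed the filter. Rbfox2 had a median of 0.23. Of the 31 probe sets, 26 passed the filter, with at least 1 for each gene. Of these 26, 3 were past 2-fold higher (11.5%), all of them Rbfox1 or Rbfox3 probe sets, beside 4.10% of all 23655 probe sets that passed. None was past 2-fold lower, beside 4.54% of all. The 3 called ones each passed through the siCPEB1 array alone, being dimmer than the median in siControl, and of all 1252 probe sets that passed in this way 38.7% were past 2-fold higher. With no filter, 6 of 31 were past 2-fold higher (19.4%) beside 13.7% of all 45037 probe sets, and 1 was past 2-fold lower beside 12.4%. The 31 probe sets had a median log2 ratio of 0.16, with 19 above 0 (61.3%), beside a median of -0.0009 and 49.9% above 0 over all probe sets.

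**Figure D1:**
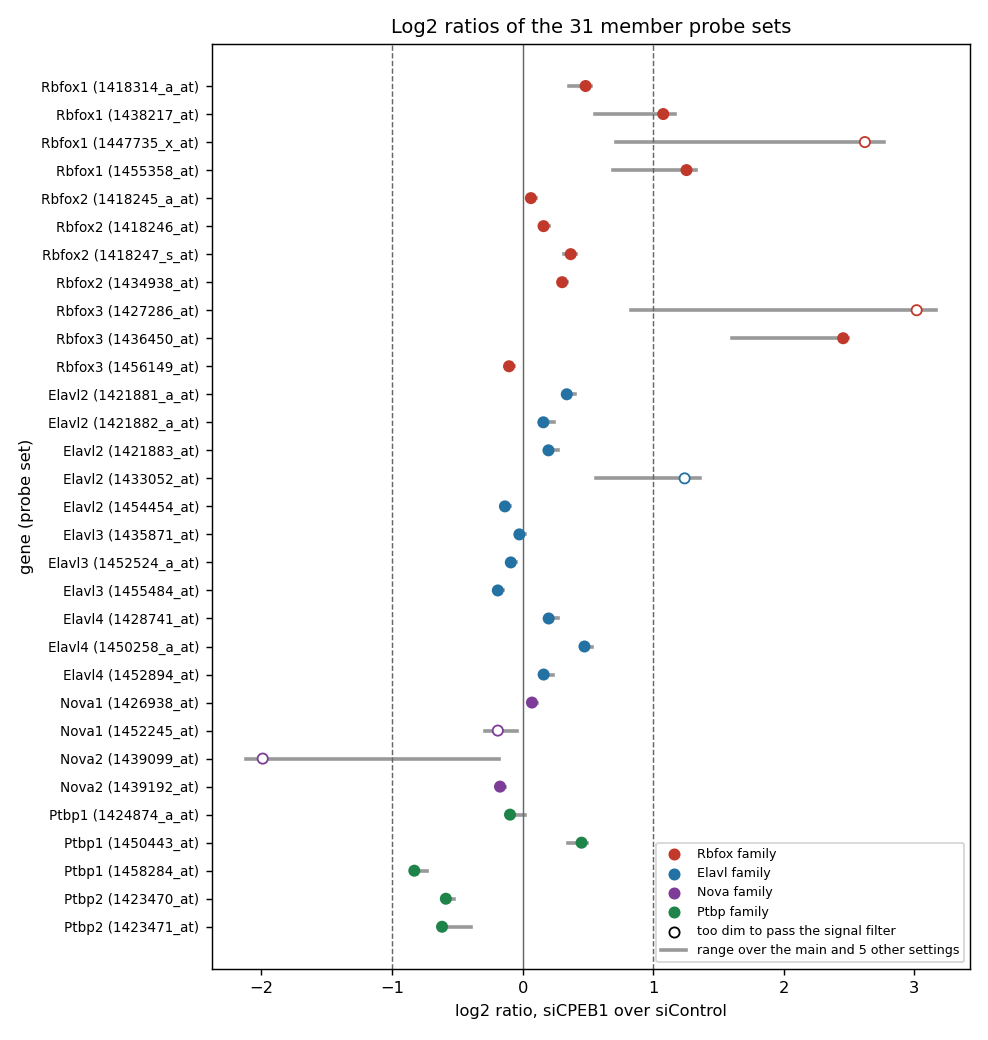
The 31 probe sets by gene, plotted by their log2 ratio (siCPEB1 over siControl); filled points passed the signal filter, open points did not, grey bars span the 6 settings of scaling or added constant, and dashed lines mark 2-fold. The 3 called points belong to Rbfox1 and Rbfox3, and both Ptbp2 points lie below 0.

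Rbfox3 carried the highest ratio among the passing probe sets of the 10 genes, and its probe sets differed from each other. The probe set 1436450_at had a signal of 75.1 in siCPEB1-transfected cells and 13.3 in siControl-transfected cells, a log2 ratio of 2.46 or 5.48-fold, and at least 3.47-fold with the siControl signal set at the median. The probe set 1427286_at read 16.4 in siCPEB1 and 1.97 in siControl, higher in siCPEB1 as well but below the median in both arrays, so no fold is given. The probe set 1456149_at reached the median in both arrays and read 30.2 in siCPEB1 and 31.5 in siControl, a log2 ratio of -0.10. Of the 3 Rbfox3 probe sets, 2 were thus higher in siCPEB1 and 1 was level. The called one belongs to the signal range with an SD of 0.70, the level one to that with an SD of 0.32. Their distance exceeded both SDs, but these are spreads about the mean of a gene and not distances between 2 probe sets. The other genes fixed as mature-neuron markers gave 1 of 6 past 2-fold higher, the synaptic vesicle fusion protein Snap25, with 3373 in siCPEB1 and 1261 in siControl at its brightest probe set. Of the other passing ones, the synaptic vesicle protein Syp read 69.7 in siCPEB1 and 95.1 in siControl, Nefh 569.5 in siCPEB1 and 451 in siControl, and the 2 Map2 probe sets had log2 ratios of -0.005 and 0.36. Nefl and Nefm lay below the median in both arrays. The brightest probe sets of the 6 genes summed to 4266 in siCPEB1 and 1999 in siControl, of which Snap25 made up most.

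Rbfox1, the splicing factor whose loss disturbs neuronal excitability, was higher in siCPEB1 at each of its 4 probe sets. Its brightest probe set, 1418314_a_at, read 56.1 in siCPEB1 and 39.0 in siControl, a log2 ratio of 0.48, and was the only one of the 4 above the median in both arrays. The probe set 1455358_at read 31.7 in siCPEB1 and 12.9 in siControl, 2.39-fold higher and at least 1.47-fold. The probe set 1438217_at read 25.2 in siCPEB1 and 11.6 in siControl, 2.11-fold higher and at least 1.16-fold. The last, 1447735_x_at, a design marked for possible cross-hybridization, stayed below the median in both arrays at 14.4 in siCPEB1 and 2.27 in siControl. The 4 probe sets shared a direction, while the difference was smallest at the brightest of them.

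Rbfox2, the family member expressed in most tissues, was bright and differed little between the arrays. Its 4 probe sets read 378, 204, 109.8 and 80.8 in siCPEB1, against 352, 161, 82.7 and 70.3 in siControl. All 4 log2 ratios were above 0, at 0.06, 0.30, 0.37 and 0.16. Only the 0.37 at 1418247_s_at exceeded the SD of 0.32 between probe sets of a gene above the median in both arrays. That SD is not an array-to-array error. Over the whole family, 10 of 11 probe sets were above 0, the exception being 1456149_at of Rbfox3.

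**Figure D2:**
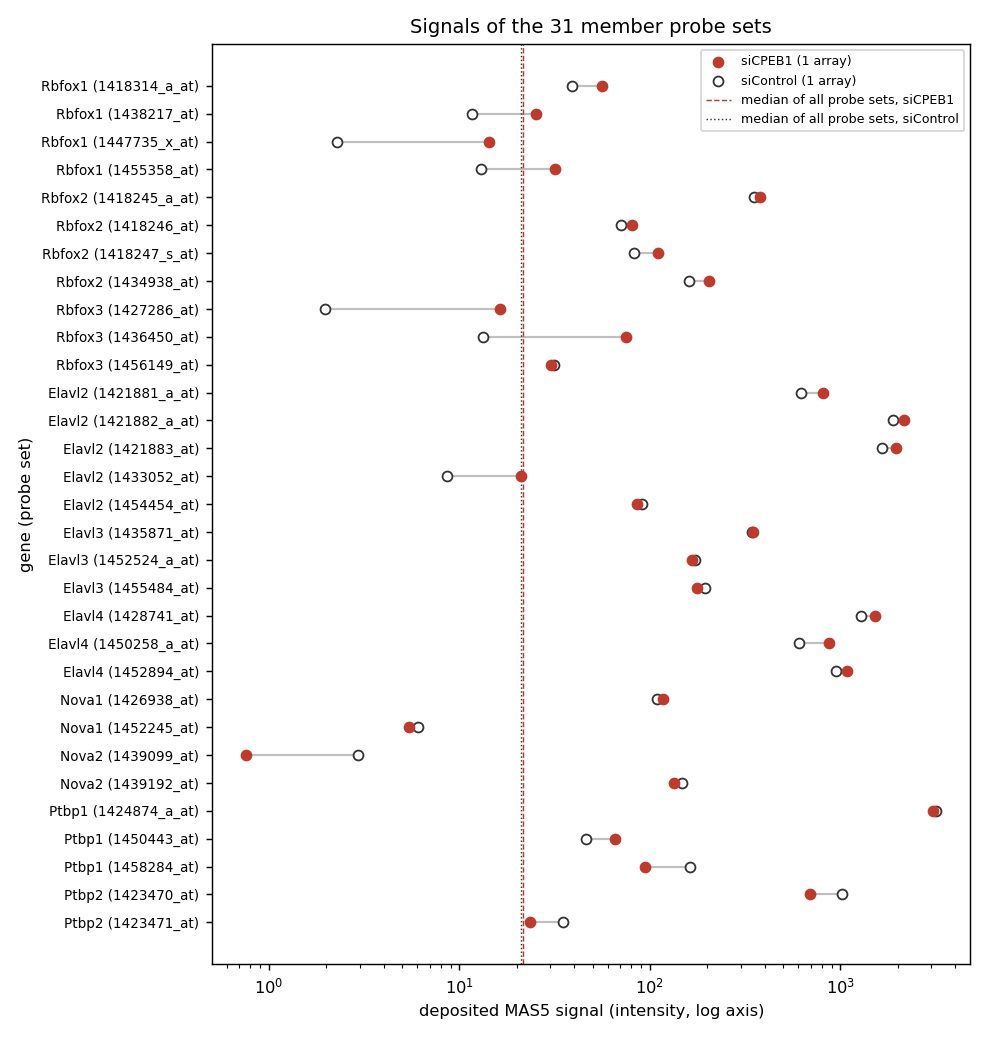
Signal on a log axis of each of the 31 probe sets in the siCPEB1 array and in the siControl array, by gene, with the array medians marked. The called Rbfox1 and Rbfox3 probe sets straddle the medians of 21.64 and 21.05, above in siCPEB1 and below in siControl, while every Rbfox2, Elavl3, Elavl4, Ptbp1 and Ptbp2 probe set lies above them in both arrays.

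Of the neuronal Elavl genes, Elavl2 and Elavl4 were bright in both arrays with most signals slightly higher in siCPEB1, and Elavl3 was level. Elavl4 (HuD), which stabilises mRNAs of growing neurites, read 1524, 1086 and 869 in siCPEB1, against 1290.5, 944 and 608 in siControl. Its log2 ratios were 0.20, 0.16 and 0.47, all above 0 and all under 2-fold. Elavl2 (HuB), the form that appears early in neuronal differentiation, read 2162, 1959 and 807 at its 3 brightest probe sets in siCPEB1, against 1883, 1660.2 and 621 in siControl, with log2 ratios of 0.16, 0.20 and 0.34. Its other passing probe set, 1454454_at, was the exception with 85.4 in siCPEB1 and 91.3 in siControl, and the remaining one, 1433052_at, read 20.98 in siCPEB1 and 8.63 in siControl and stayed below the median in both arrays. Elavl3 (HuC), a marker of postmitotic neurons, read 346, 176 and 166 in siCPEB1, against 343, 195 and 172 in siControl. Its log2 ratios were -0.02, -0.19 and -0.09, all 3 below 0 and all within the spread between probe sets. In the unscaled signals the first of these was above 0, so no direction is given for it. Over the 11 Elavl probe sets, 7 were above 0 and none of the 10 that passed was past 2-fold. Among those that passed, only the 0.47 of Elavl4 and the 0.34 of Elavl2 exceeded an SD of 0.32. That SD is the spread between probe sets of a gene above the median in both arrays.

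The Nova genes, which encode the antigens of a paraneoplastic movement disorder, were represented by few measurable probe sets. Nova1 read 118 in siCPEB1 and 109 in siControl at its passing probe set, a log2 ratio of 0.07. Its other probe set read 5.44 in siCPEB1 and 6.04 in siControl, below the median in both arrays. Nova2 read 134 in siCPEB1 and 147 in siControl at its passing probe set, a log2 ratio of -0.17, and its other probe set stood at 0.762 in siCPEB1 and 2.95 in siControl, also below the median in both. Both passing probe sets lay within the spread between probe sets of a gene.

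Ptbp2 (nPTB) was lower in siCPEB1-transfected cells at both of its probe sets, by nearly the same ratio at very different brightness. The probe set 1423470_at read 694 in siCPEB1 and 1014 in siControl, a log2 ratio of -0.59 or 1.503-fold lower. With no scaling its log2 ratio was -0.548, with quantile normalization -0.525, with loess -0.542 and with 16 added -0.577. Each of these fell short of 1.5-fold. The probe set 1423471_at read 23.5 in siCPEB1 and 35.0 in siControl, a log2 ratio of -0.62 or 1.53-fold lower. Both differences exceeded the SD of 0.32 between probe sets of a gene above the median in both arrays, and neither reached 2-fold. That SD is a spread between probes and not an array-to-array error. Both values lay between the 5th and 95th percentiles of all probe sets above the median in both arrays (-0.84 and 0.76). Ptbp1 (PTB) was bright at 1424874_a_at, with 3054 in siCPEB1 and 3175 in siControl, a log2 ratio of -0.10 that turned to 0.01 under quantile normalization and 0.02 under loess. Its dimmer probe sets pointed in opposite directions, with 93.7 in siCPEB1 and 162 in siControl at 1458284_at (1.78-fold lower), and 65.2 in siCPEB1 and 46.4 in siControl at 1450443_at (log2 ratio 0.45). No single direction could therefore be given for Ptbp1. At 1.5-fold with array medians set equal, 3 of the 26 passing probe sets of the 10 genes were lower (2 Ptbp2, 1 Ptbp1). Of all passing probe sets, 13.5% were lower. The same 3 Rbfox probe sets were higher, beside 11.5% of all.

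Among the probe sets measured best, the 10 genes differed little between the arrays. In all, 23 of the 31 probe sets, covering all 10 genes, reached the median in both arrays, and their log2 ratios ran between -0.83 for Ptbp1 and 0.48 for Rbfox1, with a median of 0.07 and 13 above 0. Over all 21097 probe sets that did so, the median was -0.02, and the 5th and 95th percentiles were -0.84 and 0.76. All 23 member values lay inside that range.

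**Figure D3:**
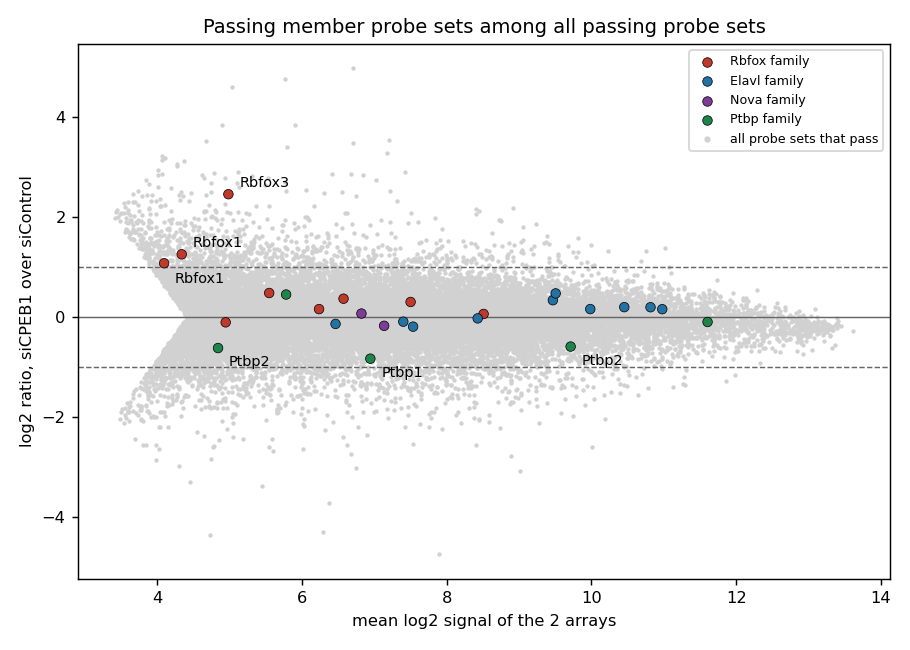
Log2 ratio of siCPEB1 over siControl against the mean log2 signal of both arrays for all 23655 probe sets that passed the filter (grey) and the 26 of the 10 genes (coloured by family), with 2-fold marked by dashed lines. The 3 called Rbfox points lie at the dim end, where the grey cloud is widest, and the Ptbp2 points lie below 0 at a dim and a bright position.

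Other RNA-binding proteins of the same kinds were set beside these genes, 29 of 31 listed genes being on the array. Of 25 genes with a passing probe set, none was past 2-fold higher and 3 were past 2-fold lower, namely Msi2, Khdrbs1 and Qk. Of their 77 passing probe sets, 0 were higher and 6 lower, beside 4.10% and 4.54% of all passing probe sets. The 105 probe sets of these lists had a median log2 ratio of -0.24, with 36 above 0 and 69 below. Msi2, a Musashi translational regulator of progenitor cells, had a log2 ratio below 0 at all 8 probe sets, of which 6 passed the filter. The passing ones lay between -1.82 and -0.24. Its brightest read 89.6 in siCPEB1 and 307 in siControl, 3.53-fold lower, and 2 others were called with 25.7 and 43.1 in siCPEB1, against 75.2 and 90.7 in siControl. Khdrbs1 (Sam68), a STAR-family splicing factor, was past 2-fold lower at 2 of 7 probe sets, with 399 in siCPEB1 and 887 in siControl at the brighter of them, while its brightest probe set read 1510 in siCPEB1 and 2007 in siControl (log2 ratio -0.45). Qk, the quaking protein of the same family, was past 2-fold lower at 1 of 7, with 57.4 in siCPEB1 and 128 in siControl, and its brightest read 1012 in siCPEB1 and 1330 in siControl. For both genes the called probe sets thus differed from the brightest one by more than the SD of 0.37. That SD is a spread about the mean of a gene and not a distance between 2 probe sets. The Khdrbs1 calls came from designs marked for possible cross-hybridization (_x_at) and the Qk call from one matching several transcripts (_a_at), so neither gene kept a call without such designs, while Msi2 kept 2 of its 3.

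In the remaining families, every passing probe set stayed under 2-fold. Elavl1 (HuR), the Elavl protein of all tissues, read 1229 in siCPEB1 and 1262 in siControl at its brightest of 6 probe sets, whose log2 ratios ran between -0.60 and 0.28. Ptbp3, a PTB paralogue, read 433 in siCPEB1 and 424 in siControl at its brightest of 3 probe sets, between -0.01 and 0.20 on the log2 scale. In the CELF and muscleblind families, which also set splicing and mRNA decay, the brightest genes were Celf1 with 2394 in siCPEB1 and 3089 in siControl, and Mbnl1 with 885 in siCPEB1 and 1146 in siControl, both at a log2 ratio of -0.41. The passing probe sets of Celf1 lay between -0.53 and -0.23 and those of Mbnl1 between -0.41 and 0.36. Of the microexon factors, Srrm4 read 60.9 in siCPEB1 and 85.3 in siControl, and its passing probe sets lay between -0.91 and -0.53. Pcbp2, a poly(C)-binding protein, read 5136 in siCPEB1 and 5359 in siControl, with log2 ratios between -0.92 and 0.02. Igf2bp3, an mRNA-binding protein of the IMP family, read 227 in siCPEB1 and 278 in siControl, with log2 ratios between -0.44 and 0.02. Fmr1, which encodes the translational regulator FMRP, had log2 ratios of 0.17, -0.14 and 0.29 at its 3 probe sets.

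**Figure D4:**
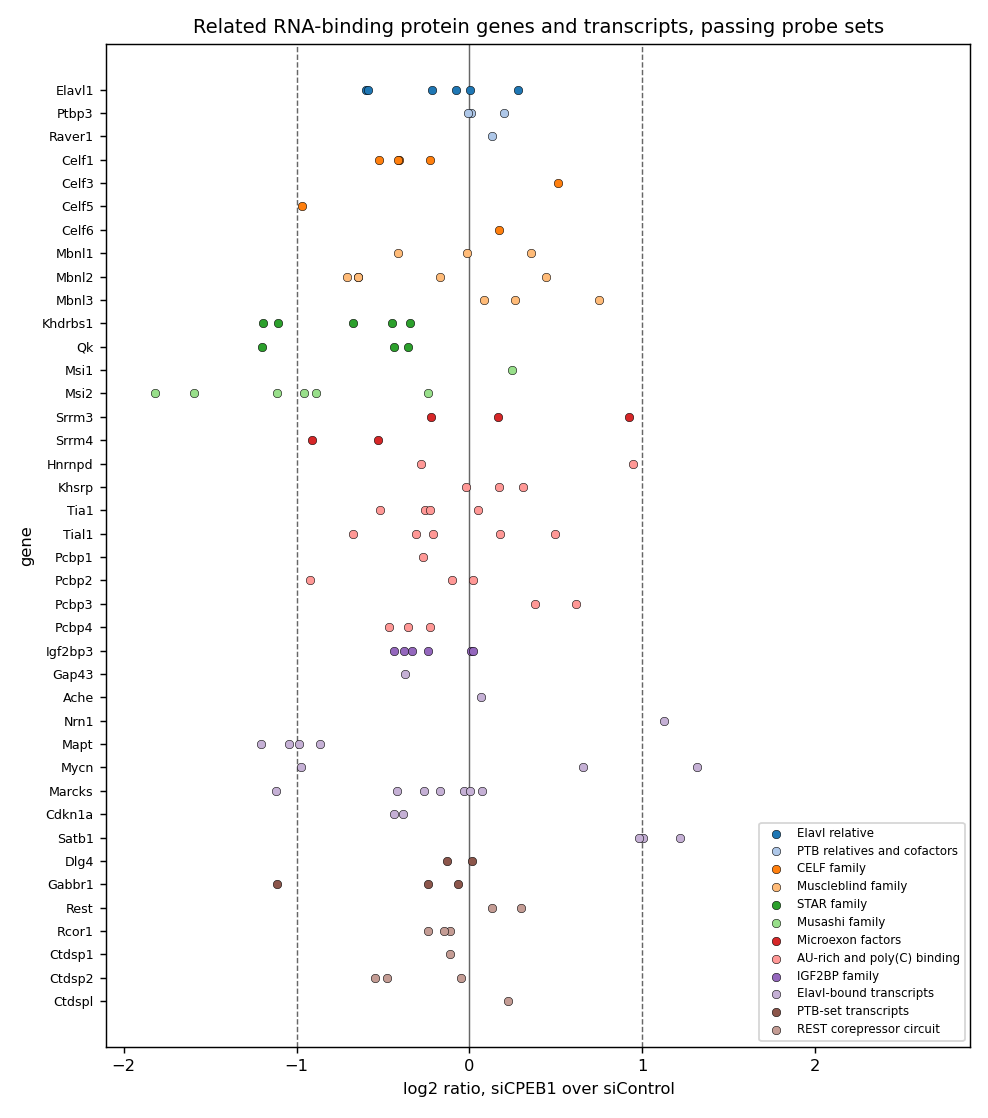
Passing probe sets of the related genes by log2 ratio (siCPEB1 over siControl), 1 row per gene and coloured by list, with dashed lines at 2-fold. Msi2, Khdrbs1 and Qk reach past 2-fold lower, and the Elavl-bound transcripts reach past 2-fold on both sides.

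Transcripts that neuronal Elavl proteins are known, from studies of other cells, to bind went in both directions. Of 8 genes with a passing probe set, 3 were past 2-fold higher and 2 past 2-fold lower. Of their 22 passing probe sets, 4 were higher and 3 lower, beside 4.10% and 4.54% of all passing probe sets. The 26 probe sets of the 9 listed genes on the array had a median log2 ratio of -0.23. The neurite growth factor Nrn1 read 2452 in siCPEB1 and 1092 in siControl, 2.18-fold higher. The neuroblastoma oncogene Mycn read 759 in siCPEB1 and 296 in siControl at its brightest probe set, 2.49-fold higher, and 134 in siCPEB1 and 82.5 in siControl at the second, while the dimmest pointed the other way with 18.0 in siCPEB1 and 34.4 in siControl. The chromatin organiser Satb1 was higher at its 3 passing probe sets, with 779, 616 and 42.3 in siCPEB1, against 383, 298 and 17.7 in siControl, of which the last 2 were past 2-fold, the dimmest by at least 1.96-fold. Mapt, which encodes the microtubule protein tau, was lower at all 4 probe sets, with 172, 120.4, 115 and 48.7 in siCPEB1, against 344, 232, 203 and 109 in siControl, the first and the last past 2-fold. Marcks, a substrate of protein kinase C, was called at 1 of 7 probe sets, with 30.1 in siCPEB1 and 63.6 in siControl, and the others lay between -0.42 and 0.07. The list therefore had no common direction beside Elavl2 and Elavl4 signals that differed by less than 2-fold.

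Transcripts tied to the PTB proteins mostly differed by less than 2-fold. Dlg4 (PSD-95), whose transcript PTB proteins destabilise through exon skipping, read 265 in siCPEB1 and 283 in siControl. Gabbr1, a GABA receptor subunit, was past 2-fold lower at 1 of its 3 passing probe sets, with 16.3 in siCPEB1 and 34.3 in siControl (at least 1.63-fold lower), and the other 2 had log2 ratios of -0.07 and -0.24. The REST repressor and its corepressors and phosphatases, which form a circuit with Ptbp1 in neuronal differentiation, gave 0 of 5 genes past 2-fold, and the brightest, Ctdsp2, read 606 in siCPEB1 and 858 in siControl at the brightest of its 3 probe sets, all of them below 0. Exon inclusion was not analysed here, and which part of a transcript each probe set covers was not used.

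Markers of other cell types gave the following values beside the Rbfox results. The fibroblast gene Col1a2 was past 2-fold higher, with 309 in siCPEB1 and 42.3 in siControl, while Col1a1, Dcn and Lum lay below the median in both arrays. The passing Pdgfra probe sets read 39.8 and 25.5 in siCPEB1, against 25.9 and 27.8 in siControl. The 5 fibroblast genes summed to 380.5 in siCPEB1, of which Col1a2 made up most, and 89.5 in siControl. Of 4 glial genes on the array 1 was past 2-fold higher (Mbp, at 2 of 8 probe sets, by at least 1.09-fold and 1.12-fold), with Gfap, Aqp4 and Sox10 below the median in both arrays, and the sums were 104 in siCPEB1 and 94.2 in siControl. The brightest Mbp probe set read 54.8 in siCPEB1 and 58.1 in siControl, and the called ones passed through the siCPEB1 array alone. Of 4 haematopoietic genes 2 were past 2-fold higher (Csf1r by at least 1.02-fold and Tyrobp by at least 1.06-fold, both passing through the siCPEB1 array alone), with Ptprc and Cd68 below the median in both, and the sums were 80.5 in siCPEB1 and 62.0 in siControl. The brighter Csf1r probe set read 43.1 in siCPEB1 and 39.5 in siControl. Of all 1252 probe sets that passed through the siCPEB1 array alone, 38.7% were past 2-fold higher. The sympathetic neuroblastoma list had 2 genes past 2-fold higher, Phox2a with 1443 in siCPEB1 and 565 in siControl and Gata3 with 172 in siCPEB1 and 46.0 in siControl. Chga and Chgb of the same list had log2 ratios of 0.93 and 0.997. Hand2 probe sets lay between 0.30 and 0.79, and passing Dbh probe sets between 0.77 and 0.98. Stmn2 was lower at both probe sets, with 2080 in siCPEB1 and 2556 in siControl at the brighter, and Tubb3 had a log2 ratio of 0.12. The median log2 ratio of the list was 0.78, with 11 of 14 probe sets above 0 and 3 below. The part of these markers in the Rbfox values was not tested, and fewer cells of a type and less RNA per cell cannot be told apart in a bulk sample.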

How the data were processed

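RNA of siCPEB1- and siControl-transfected Neuro2a cells was measured on 1 Mouse Genome 430 2.0 array each. The deposited values are linear MAS5 signal intensities, 1 per probe set, which the authors made in Affymetrix Expression Console per the labels (versions and scaling target are not given in the sources used here). After 64 control probe sets were left out, 45037 probe sets remained, of which 34945 carried 1 gene symbol in the array annotation, 932 several and 9160 none. Only those with 1 symbol were named, and symbols were checked against RefSeq. Ratios were taken as log2 of siCPEB1 over siControl from the deposited intensities, after setting the array medians equal, with Python 3.11.15, numpy 2.4.6, pandas 2.3.3 and statsmodels 0.14.6 (loess).

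No test was possible with 1 array per group, so genes are described by their signals, by calls past 2-fold among probe sets that passed the signal filter, and by the same shares over all probe sets. Depth has no counterpart on arrays, and their number limits the precision. All probe sets of the 10 genes, of Cpeb1 and of Fmr1 were named, and from each related list every gene with a passing probe set past 2-fold or, where there was none, the brightest gene. The 10 genes and the lists were chosen with earlier results of these data known. Alternatives were other scalings (none, 75th percentile, quantile, loess), 16 added to each signal, other filters, a 1.5-fold threshold and leaving out probe sets marked as matching several transcripts.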

Additional observations from a re-analysis of the deposited data

How the results depend on the processing

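No paired analysis was possible because each group was 1 array. The count of probe sets of the 10 genes past 2-fold higher was 3, and it became 1 (Rbfox3) with 16 added to both signals, 6 with no signal filter and 0 where both arrays had to reach the median. The count past 2-fold lower was 0, against 1 with no filter and 3 at a 1.5-fold threshold. In the related lists, 4 probe sets were higher, against 2 with 16 added, 8 with no filter and 10 at 1.5-fold, and 10 were lower, against 5, 18 and 25 under the same settings and 3 without probe sets marked as matching several transcripts. The log2 ratio of Cpeb1 was -3.01, and -2.58 with 16 added. Of the single probe sets, 7 ratios moved by more than the probe-set SD of 0.37, all with 16 added, among them Rbfox3 1436450_at to 1.60 and Rbfox1 1455358_at and 1438217_at to 0.70 and 0.55. Without scaling, 1 of 31 ratios changed sign, with quantile normalization 2 and with loess 1, from Elavl3 1435871_at and Ptbp1 1424874_a_at. The median over the 31 probe sets, 0.16, ran between 0.16 and 0.23 under the other scalings and was 0.08 when the probe sets of each gene were averaged first. No called probe set changed direction under these settings. Signals below the array median carry the widest spread, and the absence of a second array per group leaves the array-to-array error unknown.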
